A study of Mus musculus with 12 samples.

Results

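The genes described here are 48 interferon response genes, a list of interferon receptors, signal transducers and interferon-induced genes. A gene was measured when the platform annotation gave a probe set exactly 1 of these symbols, and its probe set with the highest mean over the arrays was used. Of the 48 genes, 44 had such a probe set, and all 44 lay above the limit for dim signals (a mean of 4.72 on the log2 scale) among 17749 genes tested, out of 22180 with a single-symbol probe set. The mean covers all arrays, so a gene that is high in a few arrays can pass the limit through them. Ifi44, Dtx3l, Ifi47 and Gbp2 had none and were not measured here; the last 3 each have 1 probe set shared with other symbols. Ifi35 had 2 probe sets, and each other measured gene had 1.

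The study asked how loss of the energy-sensing kinase AMPK alters gene expression in mouse acute myeloid leukemia driven by the MLL-AF9 fusion oncogene. C57BL/6J is the strain named for all samples. Irradiated recipients (10 Gy) were given 50000 MLL-AF9 expressing marrow stem and progenitor cells, which were either AMPKfl/fl, called wild type (WT) by the labels although the alleles are floxed, or AMPKΔ/Δ, called knockout (KO) here. At disease onset in each recipient, 5000 cells were sorted from the bone marrow as whole leukemia (GFP+) or as L-GMP (GFP+ and lin- cells that were also CD34+, CD16/32+ and c-kit+), the fraction that the submitters equate with leukemia-initiating cells. Each of the 4 groups, WT whole leukemia, KO whole leukemia, WT L-GMP and KO L-GMP, held 3 arrays numbered 1 to 3. The labels do not say which AMPK subunit was deleted or by which Cre, or whether replicates came from separate mice, so p-values reflect only how far these arrays differ within a group, which may be technical variation. Expression was read as the brightness of array probes, and all levels below are log2 of the deposited intensity.

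Type I interferons bind a receptor made of IFNAR1 and IFNAR2, which activates the kinases JAK1 and TYK2. The signal reaches the nucleus through the complex ISGF3, to which STAT2 and IRF9 belong and which binds the interferon-stimulated response element (ISRE) in the promoters of many antiviral genes, while interferon gamma acts mainly at gamma-activated sites (GAS). In hematopoietic stem and progenitor cells interferon signalling is known to affect cycling and differentiation.

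To show the sequence through which many of these genes are known to be induced, promoters from the RefSeq table (build GRCm38.p6, 250 bases before to 50 after each start site) were searched on both strands. The ISRE core was searched as GAAA and GAAA separated by any 2 bases (NN), and the GAS as TTCNNNGAA, and the motifs share the letters GAA, so their matches can overlap. Of the 44 measured genes, 35 had a promoter entry, and 18 of these (51.4%) held the ISRE core, against 3.99% of the 27025 genes in the table. A GAS match was present in 15 of the 35 (42.9%), against 9.55% of all genes. A match describes letters in this window and not a bound site. Of the 6 genes with the widest range over the arrays, Ifitm3 held the ISRE core, Irf7 and Isg20 held no ISRE core in this window, and Rtp4, Oas2 and Zbp1 had no entry. The promoters of Isg15, Ifit1, Bst2 and Irgm1 were chosen after the values were seen, as 4 further examples with more than 1 match. The 5 promoters are written 5′ to 3′ on the gene's strand, with ISRE cores in capitals.
Ifitm3 (chr7:141010695-141010994, minus strand): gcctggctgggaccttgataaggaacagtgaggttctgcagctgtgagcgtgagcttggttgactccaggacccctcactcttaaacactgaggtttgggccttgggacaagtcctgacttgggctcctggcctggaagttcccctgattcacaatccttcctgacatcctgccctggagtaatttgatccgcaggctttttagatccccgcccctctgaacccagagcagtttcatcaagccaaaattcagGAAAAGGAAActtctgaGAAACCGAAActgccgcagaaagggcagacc
Isg15 (chr4:156200769-156201068, minus strand): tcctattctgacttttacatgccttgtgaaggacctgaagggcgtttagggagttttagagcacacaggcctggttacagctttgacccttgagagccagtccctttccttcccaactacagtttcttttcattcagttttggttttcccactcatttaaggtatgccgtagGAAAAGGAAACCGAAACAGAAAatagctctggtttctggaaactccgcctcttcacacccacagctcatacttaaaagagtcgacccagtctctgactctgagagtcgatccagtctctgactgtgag
Ifit1 (chr19:34640639-34640938, plus strand): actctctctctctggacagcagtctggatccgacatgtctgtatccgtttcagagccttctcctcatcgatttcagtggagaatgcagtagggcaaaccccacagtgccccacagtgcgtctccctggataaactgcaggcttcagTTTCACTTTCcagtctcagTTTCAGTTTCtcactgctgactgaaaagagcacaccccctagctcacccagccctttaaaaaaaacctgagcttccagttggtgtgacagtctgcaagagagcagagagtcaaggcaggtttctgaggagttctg
Bst2 (chr8:71537423-71537722, minus strand): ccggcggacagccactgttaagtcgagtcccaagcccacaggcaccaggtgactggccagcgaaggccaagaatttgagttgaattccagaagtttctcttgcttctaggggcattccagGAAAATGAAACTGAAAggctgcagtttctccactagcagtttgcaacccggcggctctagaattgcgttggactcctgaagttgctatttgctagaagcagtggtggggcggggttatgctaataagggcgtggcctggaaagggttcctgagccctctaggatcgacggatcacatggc
Irgm1 (chr11:48871371-48871670, minus strand): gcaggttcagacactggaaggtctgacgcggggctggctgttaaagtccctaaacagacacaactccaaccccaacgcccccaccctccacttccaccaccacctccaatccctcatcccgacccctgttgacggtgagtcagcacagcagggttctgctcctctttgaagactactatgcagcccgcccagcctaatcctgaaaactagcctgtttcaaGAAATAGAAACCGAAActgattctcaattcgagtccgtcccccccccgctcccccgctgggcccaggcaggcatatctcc

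With the start site counted as 0, the 3 cores of Isg15 began at -78, -72 and -66 and shared bases with each other. The 2 cores of Bst2, at -130 and -124, and those of Irgm1, at -30 and -24, also ran into each other. In Ifit1 the cores lay on the opposite strand, at -104 and -85, and in Ifitm3 they lay just after the start site, at 2 and 19.

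As a check of the labels, Prkaa1, the gene of AMPK's catalytic alpha 1 subunit, measured 8.69, 7.72 and 8.32 in WT whole leukemia (arrays 1, 2 and 3) and 7.40, 7.45 and 6.95 in KO whole leukemia. In L-GMP it measured 8.33, 7.99 and 8.12 in the WT and 7.31, 6.83 and 6.87 in the KO, so every KO array lay below every WT array. Prkaa2, the alpha 2 gene, lay between 4.66 and 5.05 in all arrays, near the limit for dim signals. The 4 gate genes (Kit, Cd34, Fcgr2b and Fcgr3) had a mean of 8.25 to 8.81 in the L-GMP arrays and of 7.31 to 8.18 in the whole leukemia arrays. Of these only Cd34 separated the populations, at 9.45 to 10.05 in L-GMP and 5.54 to 9.38 in whole leukemia. Kit, Fcgr2b and Fcgr3 overlapped, and Fcgr3 measured 9.16, 8.64 and 9.05 in WT L-GMP against 9.45, 9.16 and 9.20 in WT whole leukemia. KO whole leukemia array 2 stood apart, with an erythroid marker mean of 9.52 (7 of 13 markers measured) against 4.92 to 5.98 in the other 11 arrays and a neutrophil marker mean of 11.53 (10 of 10) against 6.00 to 9.99. The mean of all 17749 genes lay between 6.17 and 6.24 in every array.

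The interferon response genes were high in array 2 of both WT groups. Their mean was 6.26, 8.04 and 6.36 in WT whole leukemia and 6.03, 7.85 and 6.29 in WT L-GMP (arrays 1, 2 and 3). In KO whole leukemia it was 6.4, 6.78 and 6.51, and in KO L-GMP it was 6.43, 6.32 and 6.47. The spread between arrays was therefore wide in the WT groups (SD 1.00 in whole leukemia and 0.98 in L-GMP, n = 3) and narrow in the KO groups (SD 0.19 and 0.08). In both WT groups the high array carried the number 2.

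**Figure D1:**
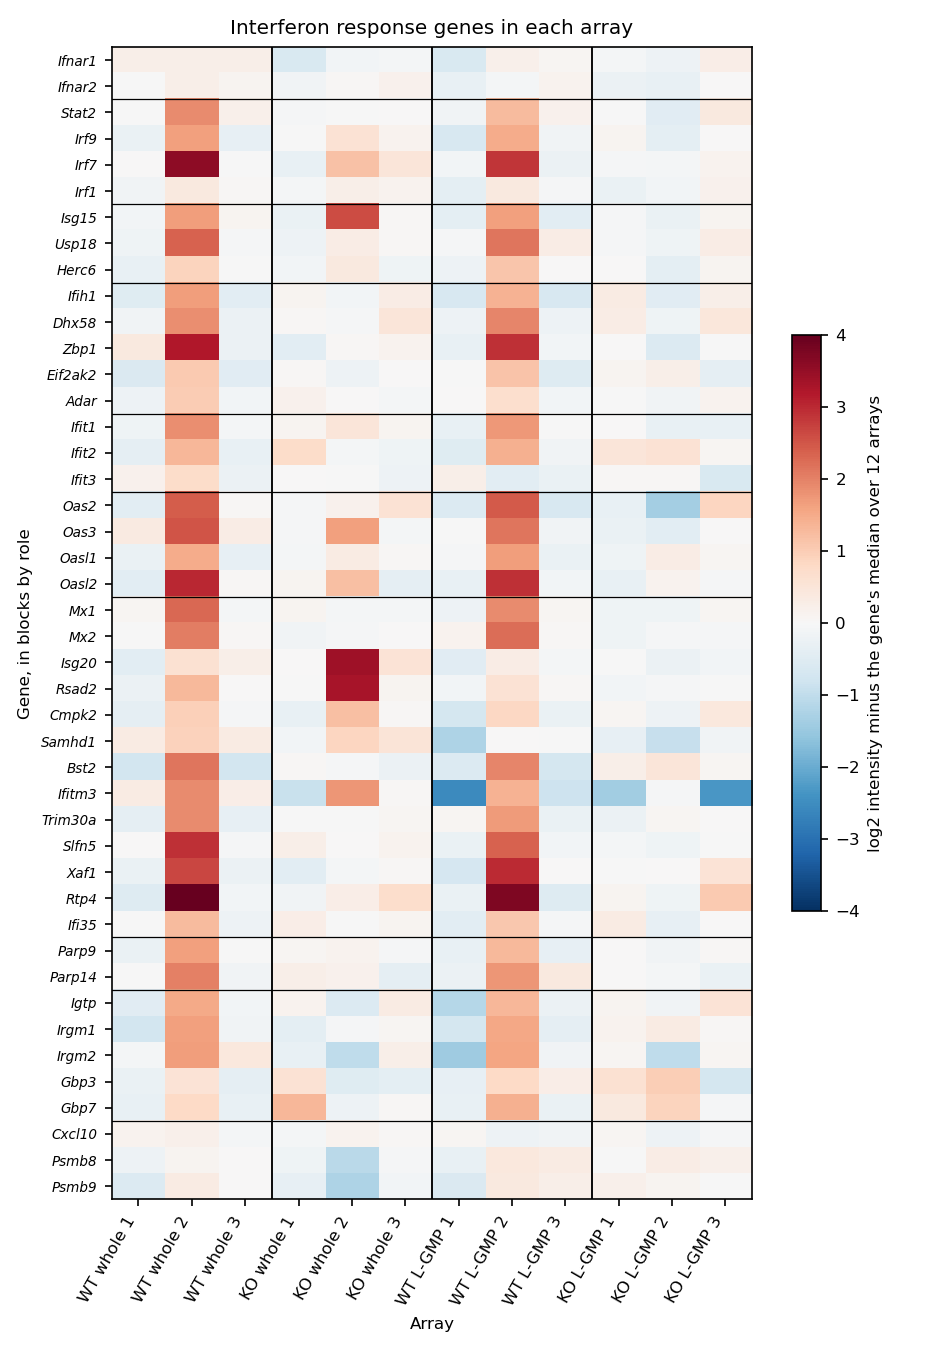
Heat map of 44 interferon response genes (rows, in blocks by role) over the 12 arrays (columns). Colour is the log2 intensity minus the gene's median over the 12 arrays, cut at 4 either way. The columns WT whole 2 and WT L-GMP 2 are red in most rows, and KO whole 2 is red for Isg20, Rsad2 and Isg15.

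The labels give no reason why these arrays should differ, so the difference between array 2 and its group was described without a test. For each gene, the deviation of an array was its level minus the mean of the other 2 arrays of its group. The median deviation of the 44 genes was 1.78 in WT whole leukemia array 2 and 1.82 in WT L-GMP array 2, where that of all genes tested was 0.00 and 0.01. In WT whole leukemia array 2, 34 of the 44 genes lay more than 1 log2 unit above the other arrays of the group, against 0.738% of all genes. In WT L-GMP array 2 the count was 32 of 44, against 0.907% of all genes. All 32 were among the 34, and 99 of 17749 genes (0.558%) did so in both arrays. In the other 10 arrays, 0 to 8 of the 44 genes lay that far above their group.

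**Figure D2:**
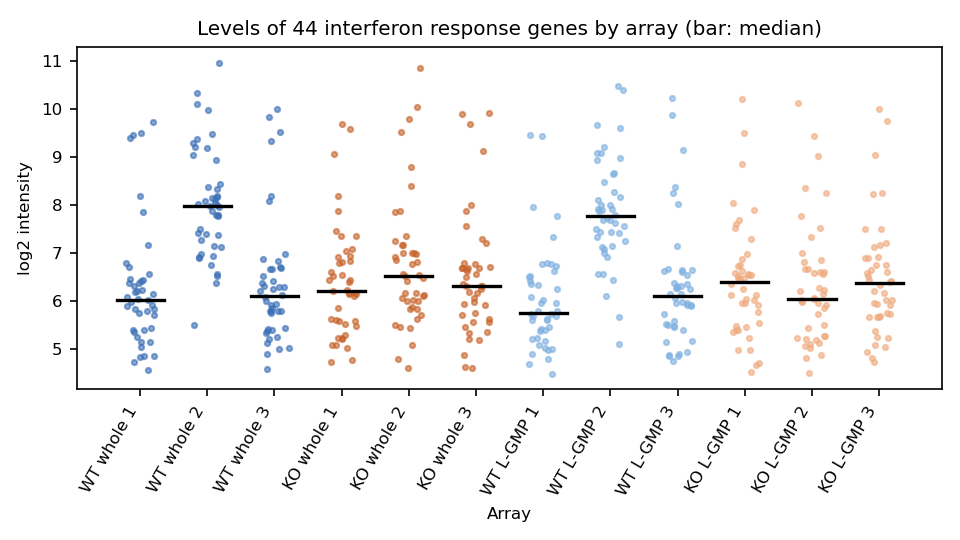
Levels of the 44 genes in each array. Each point is 1 gene (y axis, log2 intensity) and the bar is the median, which is 7.99 in WT whole 2 and 7.76 in WT L-GMP 2 and lies between 5.75 and 6.53 in the other 10 arrays.

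For 31 of the 44 genes both WT number 2 arrays were the 2 highest of the 12, and for 38 genes one of them was the highest. The exceptions were Isg20, Rsad2, Isg15 and Cmpk2, highest in KO whole leukemia array 2, Gbp3, highest in KO L-GMP array 2, and Ifnar1, highest in KO L-GMP array 3. Genes with a large deviation in one WT number 2 array had a large deviation in the other. Across the 44 genes the deviations had a Pearson r of 0.902, and across all 17749 genes it was 0.623, given as a description because the genes of an array share that array.

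**Figure D3:**
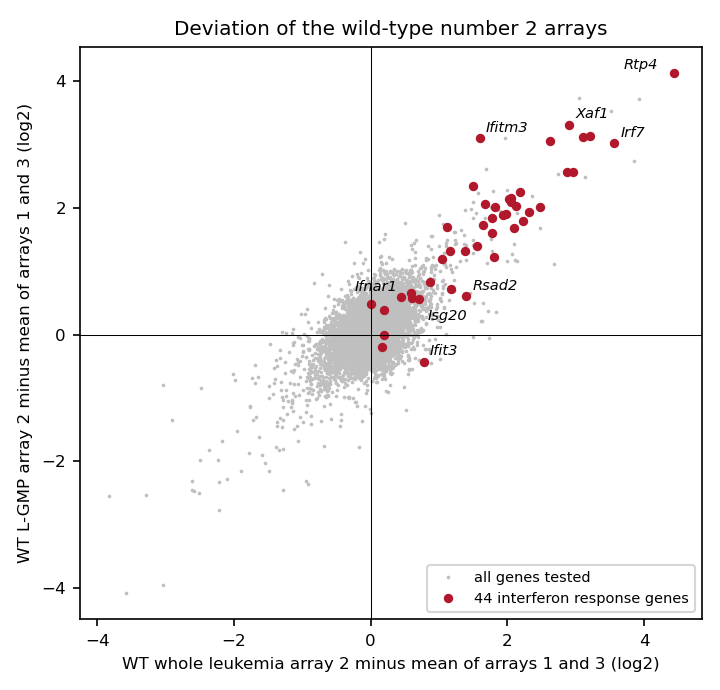
Deviation of WT whole leukemia array 2 (x axis) and of WT L-GMP array 2 (y axis) from the mean of arrays 1 and 3 of the same group, in log2 units. Grey points are all 17749 genes and red points the 44 interferon response genes; Rtp4 lies furthest to the upper right, and Ifnar1, Isg20 and Ifit3 lie below 1 on both axes.

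The receptor genes did not take part in this pattern. Ifnar1 (probe set 17327069), one chain of the type I interferon receptor, measured 8.19, 8.20 and 8.19 in WT whole leukemia, 7.35, 7.85 and 7.88 in KO whole leukemia, 7.33, 8.16 and 8.02 in WT L-GMP, and 7.89, 7.77 and 8.23 in KO L-GMP. Its deviation in the WT number 2 arrays was 0.00 in whole leukemia and 0.49 in L-GMP. Ifnar2, the other chain, deviated by 0.20 and 0.00, with levels from 9.44 to 9.99 over the 12 arrays.

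Among the transducers, Irf7, the transcription factor that amplifies type I interferon production, deviated most. Irf7 (probe set 17497813) measured 5.83, 9.38 and 5.79 in WT whole leukemia, 5.52, 6.97 and 6.30 in KO whole leukemia, 5.72, 8.67 and 5.57 in WT L-GMP, and 5.77, 5.73 and 5.96 in KO L-GMP. WT number 2 arrays were thus 11.8-fold above the other arrays of the group in whole leukemia and 8.13-fold in L-GMP. Stat2, a subunit of ISGF3, measured 6.46, 8.38 and 6.70 in WT whole leukemia, 6.43, 6.48 and 6.49 in KO whole leukemia, 6.36, 7.74 and 6.67 in WT L-GMP, and 6.47, 6.04 and 6.89 in KO L-GMP. Both WT number 2 arrays exceeded each of the other 10 arrays for Stat2 and for Irf9, the DNA-binding subunit of ISGF3. Irf1, a factor induced most strongly by interferon gamma, deviated by 0.44 and 0.59 in whole leukemia and L-GMP.

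The ISG15 system followed, with 1 further high array. Isg15, a ubiquitin-like protein that is conjugated to other proteins (probe set 17434023), measured 5.15, 6.94 and 5.37 in WT whole leukemia, 5.01, 7.88 and 5.33 in KO whole leukemia, 4.88, 6.92 and 4.86 in WT L-GMP, and 5.22, 5.02 and 5.38 in KO L-GMP. Its level was highest in KO whole leukemia array 2, next highest in the WT number 2 arrays, and 5.38 or lower in the remaining 9. Usp18, the protease that removes ISG15 and restrains receptor signalling, deviated by 2.48 in whole leukemia and 2.01 in L-GMP. Herc6, the main ligase for ISG15 in the mouse, measured 6.23, 7.41 and 6.51 in WT whole leukemia, 6.43, 6.91 and 6.35 in KO whole leukemia, 6.33, 7.62 and 6.53 in WT L-GMP, and 6.53, 6.13 and 6.64 in KO L-GMP.

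Nucleic acid sensors and RNA enzymes, taken as 1 group, deviated by a median of 2.05 in whole leukemia and 2.03 in L-GMP over 5 genes. Zbp1, a sensor of Z-form nucleic acid that can trigger cell death (probe set 17395079), measured 6.42, 9.22 and 5.79 in WT whole leukemia, 5.62, 6.06 and 6.16 in KO whole leukemia, 5.72, 8.94 and 5.91 in WT L-GMP, and 6.04, 5.49 and 6.01 in KO L-GMP. Ifih1, which encodes the double-stranded RNA sensor MDA5, measured 6.79, 8.94 and 6.83 in WT whole leukemia, 7.36, 7.17 and 7.55 in KO whole leukemia, 6.61, 8.65 and 6.63 in WT L-GMP, and 7.61, 6.8 and 7.49 in KO L-GMP. The WT number 2 arrays were highest for both, and for Ifih1 the KO arrays lay between them and the other WT arrays of the same population. Dhx58, which encodes the related helicase LGP2, measured 6.01, 8.01 and 5.91 in WT whole leukemia, 6.2, 6.11 and 6.63 in KO whole leukemia, 5.96, 8.11 and 5.95 in WT L-GMP, and 6.45, 6.00 and 6.61 in KO L-GMP. Eif2ak2, the kinase PKR that halts translation on binding double-stranded RNA, measured 6.19, 7.79 and 6.29 in WT whole leukemia, 6.81, 6.54 and 6.77 in KO whole leukemia, 6.74, 7.89 and 6.25 in WT L-GMP, and 6.86, 7.0 and 6.39 in KO L-GMP. Adar, an RNA editing enzyme that limits such sensing, deviated by 1.17 and 0.71.

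Of the IFIT genes, whose products bind viral RNA, Ifit1 and Ifit2 followed the pattern and Ifit3 did not in L-GMP. Ifit1 (probe set 17358832) measured 5.35, 7.37 and 5.44 in WT whole leukemia, 5.61, 5.99 and 5.62 in KO whole leukemia, 5.20, 7.25 and 5.49 in WT L-GMP, and 5.53, 5.20 and 5.22 in KO L-GMP. Ifit2 measured 5.74, 7.40 and 5.78 in WT whole leukemia, 6.83, 6.02 and 5.90 in KO whole leukemia, 5.60, 7.50 and 5.95 in WT L-GMP, and 6.58, 6.66 and 6.16 in KO L-GMP. Ifit3 measured 6.70, 7.27 and 6.30 in WT whole leukemia, 6.54, 6.52 and 6.32 in KO whole leukemia, 6.77, 6.10 and 6.27 in WT L-GMP, and 6.57, 6.59 and 5.93 in KO L-GMP. WT L-GMP array 2 was thus the lowest of its group for Ifit3. Probe sets of closely related copies in the IFIT, OAS, GBP and IRG families can share signal, and this was not tested.

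The OAS genes, whose products make the 2-5A messenger that activates RNase L or act as related antiviral proteins, had the largest median deviation of the 10 role groups, at 2.40 in whole leukemia and 2.65 in L-GMP over 4 genes. Oas2 (probe set 17452054) measured 6.2, 9.05 and 6.66 in WT whole leukemia, 6.6, 6.82 and 7.21 in KO whole leukemia, 6.08, 9.09 and 5.98 in WT L-GMP, and 6.34, 5.27 and 7.51 in KO L-GMP. Oas3 measured 5.98, 8.14 and 5.93 in WT whole leukemia, 5.59, 7.26 and 5.55 in KO whole leukemia, 5.60, 7.79 and 5.47 in WT L-GMP, and 5.36, 5.22 and 5.66 in KO L-GMP. Both WT number 2 arrays lay above all the others for Oas2 and Oas3. Oasl2 deviated by 3.22 and 3.14, and Oasl1, which restrains IRF7 translation in mice, by 1.77 and 1.84.

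Rtp4, a chaperone of membrane receptors that is strongly induced by interferon, had the largest deviation of all 17749 genes in both arrays. Its probe set (17324446) measured 4.84, 9.48 and 5.24 in WT whole leukemia, 5.21, 5.61 and 6.06 in KO whole leukemia, 5.08, 9.09 and 4.85 in WT L-GMP, and 5.46, 5.19 and 6.41 in KO L-GMP. This is 21.6-fold above the other arrays of the group in whole leukemia and 17.4-fold in L-GMP, and KO L-GMP array 3 was the next highest. Xaf1, which promotes apoptosis, deviated by 2.90 in whole leukemia and 3.31 in L-GMP. Slfn5, a member of the Schlafen family, measured 5.04, 7.98 and 5.0 in WT whole leukemia, 5.28, 5.07 and 5.19 in KO whole leukemia, 4.79, 7.41 and 4.93 in WT L-GMP, and 4.97, 4.87 and 5.04 in KO L-GMP. Trim30a, a mouse TRIM protein that restrains inflammatory signalling, deviated by 2.23 and 1.80, and Ifi35, an interferon-induced leucine zipper protein, by 1.38 and 1.32.

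Bst2 encodes tetherin, which holds budding virus particles at the cell surface. Bst2 (probe set 17510345) measured 6.31, 9.18 and 6.32 in WT whole leukemia, 7.07, 7.01 and 6.79 in KO whole leukemia, 6.5, 8.98 and 6.34 in WT L-GMP, and 7.28, 7.52 and 7.13 in KO L-GMP. All 6 KO arrays lay above WT arrays 1 and 3 and below WT array 2 of either population. Mx2, a dynamin-like GTPase, measured 4.83, 6.90 and 4.90 in WT whole leukemia, 4.72, 4.8 and 4.87 in KO whole leukemia, 5.0, 7.08 and 4.89 in WT L-GMP, and 4.67, 4.8 and 4.81 in KO L-GMP. Mx1, its nuclear relative, carries a deletion in C57BL/6 mice that abolishes its antiviral function, and its transcript still deviated by 2.32 and 1.94.

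Ifitm3, which blocks fusion of viruses in endosomes, varied between populations as well as between arrays. Its probe set (17497718) measured 9.41, 10.97 and 9.34 in WT whole leukemia, 8.18, 10.85 and 9.13 in KO whole leukemia, 6.51, 10.47 and 8.24 in WT L-GMP, and 7.68, 9.02 and 6.76 in KO L-GMP. The number 2 array was the highest of each of the 4 groups. Samhd1, which depletes the nucleotides that retroviruses need, measured 9.51, 10.10 and 9.52 in WT whole leukemia, 9.06, 10.04 and 9.69 in KO whole leukemia, 7.95, 9.21 and 9.15 in WT L-GMP, and 8.85, 8.25 and 9.04 in KO L-GMP.

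Isg20, Rsad2 and Cmpk2 were highest in KO whole leukemia array 2. Isg20, an exonuclease that degrades RNA (probe set 17479317), measured 5.71, 6.75 and 6.36 in WT whole leukemia, 6.17, 9.52 and 6.69 in KO whole leukemia, 5.69, 6.43 and 6.05 in WT L-GMP, and 6.12, 5.92 and 6.02 in KO L-GMP. Rsad2, which encodes the antiviral enzyme viperin (probe set 17280327), measured 4.86, 6.38 and 5.11 in WT whole leukemia, 5.07, 8.39 and 5.19 in KO whole leukemia, 4.98, 5.66 and 5.13 in WT L-GMP, and 4.97, 5.06 and 5.07 in KO L-GMP. Cmpk2, a mitochondrial nucleotide kinase, measured 5.8, 7.11 and 6.12 in WT whole leukemia, 5.84, 7.34 and 6.19 in KO whole leukemia, 5.45, 6.99 and 5.89 in WT L-GMP, and 6.25, 5.96 and 6.57 in KO L-GMP. In KO whole leukemia array 2, 8 of the 44 genes lay more than 1 log2 unit above the other arrays of the group, against 3.53% of all genes. The 8 were Isg20, Rsad2, Isg15, Ifitm3, Oas3, Oasl2, Cmpk2 and Irf7, whereas the deviations of Zbp1, Ifih1, Slfn5 and Rtp4 lay between -0.29 and 0.17. This array also held the erythroid and neutrophil marker levels given above, whose part in these values was not tested. In bulk samples, fewer cells of a type and less RNA per cell cannot be told apart.

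PARP9, an ADP-ribosyltransferase family member that augments interferon signalling, deviated by 1.78 in whole leukemia and 1.6 in L-GMP. Parp14, a related enzyme, measured 5.92, 7.96 and 5.79 in WT whole leukemia, 6.17, 6.10 and 5.57 in KO whole leukemia, 5.69, 7.69 and 6.32 in WT L-GMP, and 5.95, 5.84 and 5.66 in KO L-GMP. Both WT number 2 arrays exceeded all others for this gene.

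The interferon-inducible GTPases, which act on the vacuoles of intracellular pathogens, deviated by a median of 1.5 in whole leukemia and 2.00 in L-GMP over 5 genes. Igtp measured 5.90, 7.88 and 6.24 in WT whole leukemia, 6.51, 5.83 and 6.69 in KO whole leukemia, 5.22, 7.68 and 6.13 in WT L-GMP, and 6.48, 6.22 and 6.92 in KO L-GMP. Irgm2 measured 6.37, 8.12 and 6.87 in WT whole leukemia, 6.14, 5.43 and 6.68 in KO whole leukemia, 5.02, 8.01 and 6.30 in WT L-GMP, and 6.53, 5.43 and 6.51 in KO L-GMP. For Irgm2 the number 2 KO arrays were the lowest after WT L-GMP array 1. Irgm1, a regulator of the other IRG proteins, deviated by 2.05 and 2.09. Gbp3 measured 6.09, 6.91 and 5.99 in WT whole leukemia, 6.92, 5.87 and 5.97 in KO whole leukemia, 6.01, 7.13 and 6.61 in WT L-GMP, and 6.97, 7.34 and 5.66 in KO L-GMP. Gbp7 measured 5.40, 6.52 and 5.40 in WT whole leukemia, 7.03, 5.5 and 5.74 in KO whole leukemia, 5.41, 7.12 and 5.45 in WT L-GMP, and 6.11, 6.61 and 5.68 in KO L-GMP. For these guanylate-binding proteins single KO arrays reached the level of the WT number 2 arrays.

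The chemokine Cxcl10 and the immunoproteasome subunits showed little of the pattern. Cxcl10 lay between 5.09 and 5.49 in all 12 arrays. Psmb8 measured 7.85, 8.16 and 8.08 in WT whole leukemia, 7.88, 6.99 and 8.0 in KO whole leukemia, 7.77, 8.47 and 8.39 in WT L-GMP, and 8.04, 8.35 and 8.25 in KO L-GMP. Psmb9 measured 9.47, 10.34 and 10.01 in WT whole leukemia, 9.69, 8.79 and 9.91 in KO whole leukemia, 9.44, 10.40 and 10.23 in WT L-GMP, and 10.21, 10.12 and 10.00 in KO L-GMP. KO whole leukemia array 2 was the lowest of the 12 for both subunits.

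Genes with an ISRE core in the promoter had a median deviation of 1.74 in WT whole leukemia array 2 and 1.96 in WT L-GMP array 2 (18 genes), and those without an ISRE core had 1.16 and 1.19 (17 genes). The groups overlapped widely, at 0.17 to 2.96 with a core and 0.00 to 3.57 without one in whole leukemia, and no test was made. The 5 genes whose promoters are printed above deviated by 1.6 (Ifitm3) to 2.87 (Bst2) in whole leukemia and by 1.91 (Ifit1) to 3.10 (Ifitm3) in L-GMP. Ifit3 and Gbp3 also hold 2 cores in a promoter and are not printed. They deviated by 0.77 and 0.87 in whole leukemia and by -0.43 and 0.83 in L-GMP. Cxcl10, which has an ISRE core, deviated by 0.17 and -0.19, and Irf7, with none in this window, by 3.57 and 3.02.

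The interferon genes themselves did not stand out in the WT number 2 arrays. The mean of 8 ligand genes was 5.83 in WT whole leukemia array 2 and 5.68 in WT L-GMP array 2, against 5.72 to 6.00 in the other 10 arrays. Over the 12 arrays Ifnb1 lay between 4.38 and 4.62, below the limit for dim signals, and Ifng between 4.67 and 4.88, near it. Of the 8 ligand genes, 2 had a mean below this limit and are included in the means above. At such levels a difference between arrays could go unseen. Markers of plasmacytoid dendritic cells, known as strong producers of type I interferon, had a mean of 5.26 in both arrays (8 of 9 measured), against 5.22 to 5.85 in the others, and Siglech was 5.40 in both. Markers of T and NK cells had means of 5.10 and 4.94 (11 of 13 measured), against 5.07 to 5.72. All cells were sorted as GFP+, and L-GMP also as lin-. Cells outside these gates were not sampled, so these levels cannot show whether interferon-producing cells were present in the marrow. Monocyte and macrophage markers had means of 8.08 and 7.45 (10 of 10), against 6.68 to 8.14 in the other arrays.

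**Figure D4:**
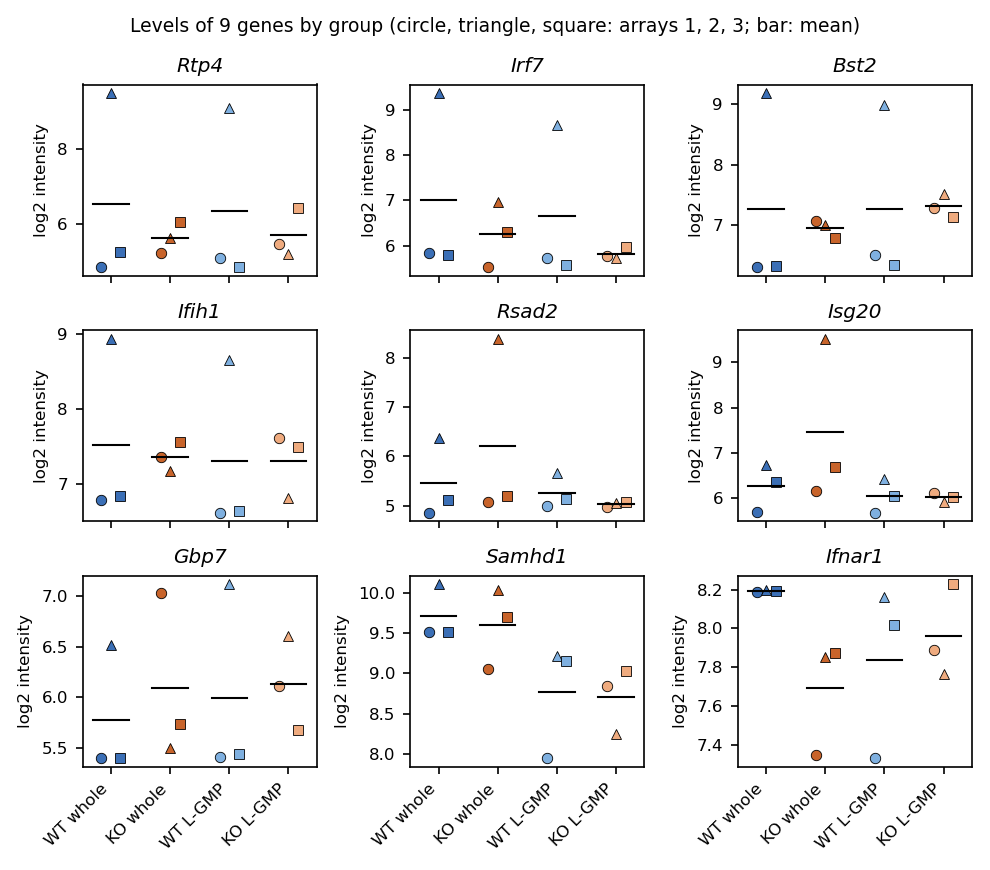
Levels of 9 genes (y axis, log2 intensity, 1 panel a gene, axes not starting at 0) in the 4 groups. Circles, triangles and squares are arrays 1, 2 and 3 and bars are group means. The triangles of both WT groups stand far above for Rtp4, Irf7, Bst2 and Ifih1, that of KO whole leukemia stands above for Rsad2 and Isg20, and Ifnar1 shows neither.

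The first genotype comparison asks what AMPK loss alters in L-GMP. None of the 44 genes was called by limma at an adjusted p under 0.05 (0 genes; lowest adjusted p = 0.9998, all genes tested 0.00563% called), and 0 reached an unadjusted p under 0.05, against 4.13% of all genes. In KO L-GMP, 32 of the 44 genes were lower than in WT L-GMP and 12 higher, with a median difference of -0.27 where that of all genes was 0.02. Mx2 was the 1 gene whose arrays did not overlap, against 9.48% of all genes, and all 3 KO arrays were lower (difference -0.90, SE 0.62, limma adjusted p = 0.9998). The size of the Mx2 difference rested on WT array 2, and with both number 2 WT arrays left out it was -0.18. For Mx2 the KO arrays and WT arrays 1 and 3 lay near the limit for dim signals. Zbp1 differed by -1.01 (SE 0.93), Irf7 by -0.83 (SE 1.01) and Rtp4 by -0.65 (SE 1.29), and for each the WT mean rested on array 2. Bst2 differed by 0.04 with an interval from -1.75 to 1.82, so neither a higher nor a lower level could be resolved. With 3 arrays against 3 the precision of every such difference is limited by their number.

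The sign of this comparison depended on the number 2 WT arrays. With both left out, 33 of the 44 genes were higher in KO L-GMP and 11 lower, with a median of 0.20. Among all genes 54.6% were then higher. Again 0 genes were called by limma; 6 had an unadjusted p under 0.05 and were higher, namely Bst2, Irgm1, Ifih1, Igtp, Ifit2 and Parp9, against 2.04% of all genes in that direction. Bst2 differed by 0.89 (SE 0.14, limma adjusted p = 0.531, higher in 3 of 3 KO arrays). With 2 WT arrays against 3 KO arrays, 12 genes were higher without overlap, against 11% of all genes, and 1 was lower (Mx2), against 7.67%. Leaving out the arrays that are high in the WT by itself moves the difference upwards. It also takes their spread out of the SE, so the SEs and unadjusted p-values of this fit are a description.

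In whole leukemia the same comparison gave 39 genes lower and 5 higher in the KO, with a median of -0.33 (all genes 0.00), and 0 of the 44 were called by limma (lowest adjusted p = 0.828), as were 0 of all genes. Ifnar1 was the 1 gene with an unadjusted p under 0.05, against 5.97% of all genes, and the 1 gene without overlap, against 11.2%. It differed by -0.50 (SE 0.22, limma adjusted p = 0.828), and all 3 KO arrays were lower than the WT arrays. Its WT arrays lay close together. Monocyte and macrophage markers (10 of 10 measured) were also lower in KO whole leukemia, with array means of 7.30, 6.68 and 7.48 against 8.14, 8.08 and 7.80, and their part in this difference was not tested. Without the number 2 WT arrays its difference was also -0.50 (SE 0.24, limma adjusted p = 0.9994). Isg20 differed by 1.19 (SE 0.69) and Rsad2 by 0.77 (SE 0.75), and without KO array 2 they differed by 0.16 and -0.32.

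With both number 2 WT arrays left out, 34 genes were higher in KO whole leukemia and 10 lower, with a median of 0.21, where 49.5% of all genes were higher. None was called by limma (0 genes; lowest adjusted p = 0.9994), and 4 had an unadjusted p under 0.05, namely Bst2, Trim30a, Ifih1 and Irf9, all higher, against 1.46% of all genes in that direction. Bst2 differed by 0.64 (SE 0.14, limma adjusted p = 0.9994). Without overlap, 12 genes were higher, against 9.06% of all genes, and 1 was lower (Ifnar1), against 9.34%. Ifih1, Dhx58, Ifit2, Bst2 and Gbp7 were higher without overlap in both populations, 5 of 44, where 277 genes (1.56%) were so among all tested. The arrays left out were known to be high for such genes, and WT arrays pair across populations. This count and the unadjusted p-values of this fit are therefore a description.

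**Figure D5:**
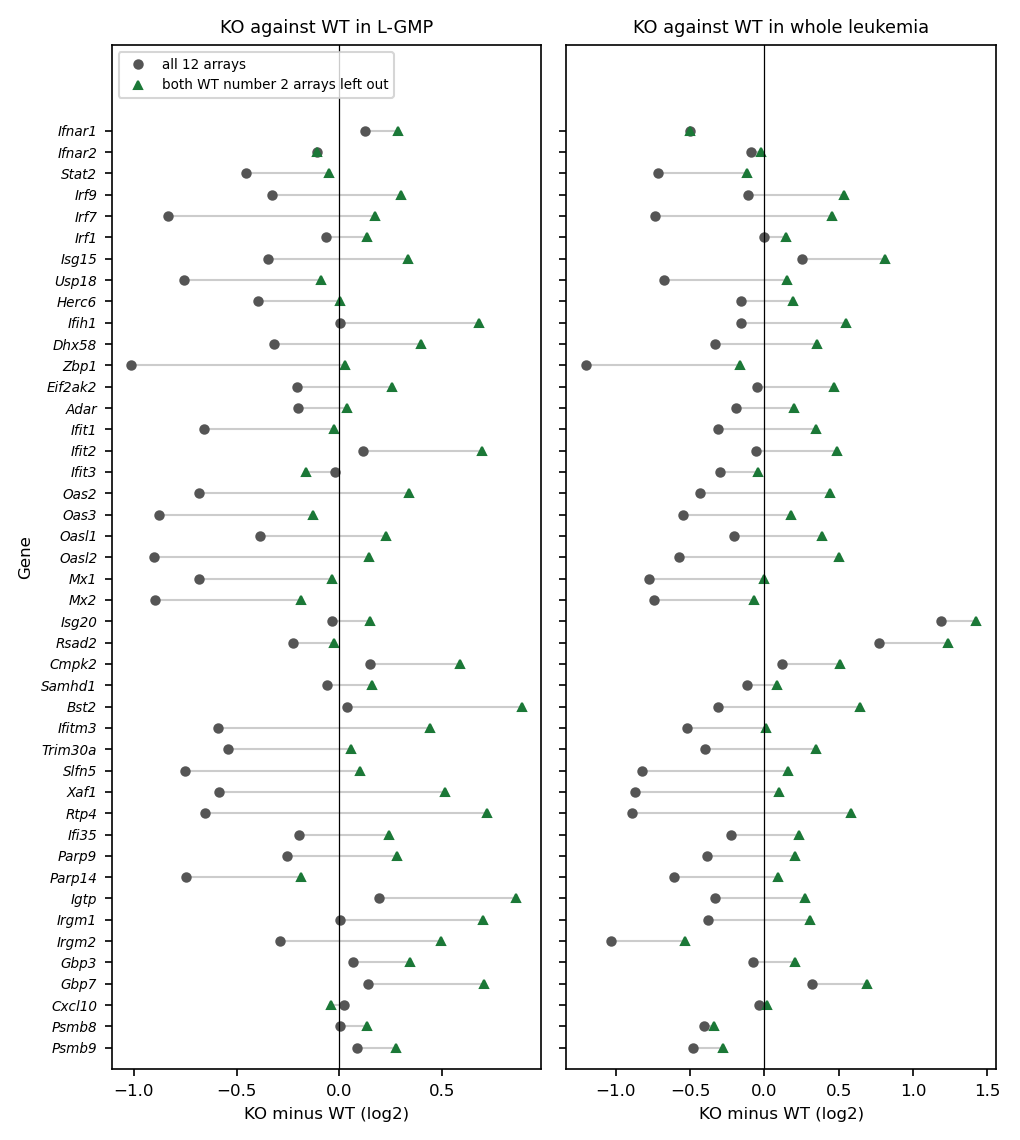
KO minus WT difference of each gene (x axis, log2) in L-GMP (left) and whole leukemia (right). Circles use all 12 arrays and triangles leave out both WT number 2 arrays; most circles lie left of 0 (32 and 39 of 44) and most triangles right of it (33 and 34 of 44).

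L-GMP was compared with whole leukemia in each genotype to ask what sets the leukemia-initiating fraction apart. In the WT, 29 of the 44 genes were lower in L-GMP and 15 higher, with a median of -0.15 (all genes 0.00), and 0 were called by limma (lowest adjusted p = 0.9999). This median was 0.51 without WT whole leukemia array 2, -0.67 without WT L-GMP array 2 and -0.07 without both. Samhd1 and Ifnar1 were lower without overlap, 2 of 44 against 10.3% of all genes. Samhd1 differed by -0.94 (SE 0.37, interval -1.76 to -0.12, limma adjusted p = 0.9999), the 1 gene with an unadjusted p under 0.05, against 2.5% of all genes. Ifitm3 differed by -1.5 (SE 1.01), with array 2 high in both populations. Fitted with a block for each genotype and array number, which pairs the WT arrays, 0 genes were called (lowest limma adjusted p = 0.998). In that paired limma fit 4 genes were lower and 0 higher at an unadjusted p under 0.05, against 2.34% and 1.91% of all genes. The 4 were Ifitm3 (-1.5, SE 0.50, interval -2.70 to -0.30), Irgm2, Samhd1 and Slfn5. The block also paired the KO arrays by number, which were not taken as paired here.

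In the KO, 30 genes were lower in L-GMP and 14 higher, with a median of -0.08 (all genes 0.01), and 0 were called by limma (lowest adjusted p = 0.672). Arrays did not overlap for 7 of the 44 genes, against 10.2% of all genes. Lower in L-GMP without overlap were Samhd1 (-0.89, SE 0.37), Isg20 (-1.44, SE 0.69), Ifit1 (-0.42, SE 0.58) and Slfn5 (-0.22, SE 0.81). Higher without overlap were Bst2 (0.35, SE 0.80), Psmb8 (0.59, SE 0.26) and Psmb9 (0.65, SE 0.33). Samhd1 and Psmb8 had an unadjusted p under 0.05, 2 of 44 against 7.39% of all genes. The SEs pool the spread of WT and KO arrays, so the WT number 2 arrays enter them although no WT array is compared here. With both left out, the SE was 0.13 for Bst2, 0.15 for Ifit1 and 0.09 for Slfn5. For Samhd1, Isg20, Psmb8 and Psmb9 it was 0.36, 0.75, 0.27 and 0.32. In that limma fit Bst2 was higher and Ifit1, Samhd1 and Slfn5 lower at an unadjusted p under 0.05. Among all genes 3.44% were higher and 2.45% lower at that limit, and 0 of the 44 were called. The WT number 2 arrays were left out because many of the 44 genes are high in them, so these p-values are a description. Without KO whole leukemia array 2, where Isg20 was highest and Psmb8 and Psmb9 lowest, Isg20 differed by -0.41, Psmb8 by 0.27, Psmb9 by 0.31 and Samhd1 by -0.66, and 0 genes had an unadjusted p under 0.05. Samhd1 was thus lower in L-GMP without overlap in both genotypes, and these comparisons share no arrays. The share of all genes that were so in both genotypes was not computed. Samhd1 was singled out of the 44 genes for its values, so this is a description.

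The interaction asks whether the genotype difference itself differed between populations. Of the 44 genes, 23 had a more positive difference in L-GMP and 21 a more negative one, with a median of 0.02 against 0.02 over all genes. None was called (0 genes; limma adjusted p = 1 throughout), and 0 had an unadjusted p under 0.05, against 2.06% of all genes. Ifnar1 had the lowest p, with an interaction of 0.62 (SE 0.31, interval -0.06 to 1.31). Isg20 had an interaction of -1.22 (SE 0.98), and of -0.19 without KO whole leukemia array 2. The median was -0.61 without WT whole leukemia array 2 and 0.55 without WT L-GMP array 2.

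Other genes of the pathway were measured at 69 loci, of which 60 were tested. In L-GMP 26 were higher and 34 lower in the KO, and in whole leukemia 21 were higher and 39 lower, with 0 called by limma in either (lowest adjusted p = 0.9998 and 0.808). At an unadjusted p under 0.05 there was 1 higher and 1 lower in L-GMP, and 1 higher and 5 lower in whole leukemia, that is 2 and 6 of 60, against 4.13% and 5.97% of all genes. Without overlap 4 were higher and 2 lower in L-GMP (10%), against 9.48% of all genes in either direction. In whole leukemia 1 was higher and 9 were lower without overlap (16.7%), against 11.2% of all genes. Tlr9, an endosomal sensor of unmethylated DNA that lies upstream of interferon production, measured 7.92, 8.63 and 7.30 in WT whole leukemia, 6.25, 7.18 and 7.11 in KO whole leukemia, 7.11, 7.58 and 7.80 in WT L-GMP, and 6.84, 6.19 and 6.43 in KO L-GMP. KO arrays were lower without overlap in both populations, with differences of -1.10 in whole leukemia (SE 0.36, limma adjusted p = 0.808) and -1.01 in L-GMP (SE 0.36, limma adjusted p = 0.9998). Tlr7, the related sensor of single-stranded RNA, measured 7.62, 7.47 and 7.08 in WT whole leukemia, 5.5, 6.96 and 6.83 in KO whole leukemia, 6.24, 6.26 and 6.54 in WT L-GMP, and 5.82, 5.28 and 6.24 in KO L-GMP. It was also lower without overlap in both populations, with differences of -0.96 in whole leukemia (SE 0.36) and -0.57 in L-GMP (SE 0.36, neither called). The share of all genes lower without overlap in both populations was not computed. Tlr7 and Tlr9 were singled out of the 60 genes for this, and WT arrays pair across populations, so it is a description. Over all alternatives run, the Tlr9 difference stayed between -1.43 and -0.76 in whole leukemia and between -1.21 and -0.82 in L-GMP, with 0 calls. The Tlr7 difference was -0.49 in whole leukemia without KO whole leukemia array 1 and -0.32 in L-GMP without KO L-GMP array 2. Monocyte and macrophage markers were lower in the KO without overlap in both populations too, with array means in L-GMP of 7.46, 7.45 and 7.87 in the WT and 7.34, 7.21 and 7.21 in the KO, beside those of whole leukemia given above. Their part in the Tlr7 and Tlr9 differences was not tested.

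Of these 60 genes, 13 lay more than 1 log2 unit above their group in both WT number 2 arrays. Lgals3bp, a secreted glycoprotein, deviated by 3.52 in whole leukemia and 3.53 in L-GMP. Ifi204, a mouse sensor of DNA, deviated by 3.85 and 2.74, and Oas1g, another 2-5A synthetase gene, by 3.05 and 3.73. Outside the WT number 2 arrays Ifi204 lay between 4.33 and 5.01, around the limit for dim signals.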

How the data were processed

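RNA of 12 sorted samples was amplified and biotin-labelled with NuGEN kits, per the labels' protocols, and hybridised to 1-colour arrays. The deposited values are linear intensity per probe set, 17.96 to 9108 over 33794 probe sets. How they were normalized, and with which software, is not given in the sources used here. They were taken to log2 without further scaling. The platform annotation gave 23521 probe sets 1 symbol, 1814 several and 8459 none. Genes were tested when their mean reached 4.72, the lower quartile (25%) of probe set means. Groups were compared with limma 3.58.1 (R 4.3.3, statmod 1.5.0) on 1 mean per group over all 12 arrays, with Benjamini-Hochberg adjustment over 17749 genes and calls at an adjusted p under 0.05; intervals are 95%. Tables and figures were made with Python 3.11.15, pandas 2.3.3, numpy 2.4.6 and matplotlib 3.10.9, and the fit was checked on simulated arrays. Values per array were given for genes whose groups did not overlap, the 4 of lowest p in each direction per comparison and the 6 of largest range over the arrays, and for genes that the text singles out after seeing values. The genes, lists and alternatives were chosen with earlier results of these data known. Promoters came from RefSeq (GRCm38.p6), which has no entry for 9 measured genes.

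Equal numbers were taken to pair WT whole leukemia with WT L-GMP, since deviations from group means correlated at 0.363, 0.623 and 0.301 for numbers 1 to 3 over 17749 genes (0.340, 0.569 and 0.283 without pathway genes). In the KO they correlated at 0.133, 0.0905 and 0.432, and across genotypes at 0.187 or below. KO number 3 thus correlated more than WT numbers 1 and 3, but KO number 2 correlated less than with another number (0.19). Arrays of equal number were not taken as paired in the KO or across genotypes, and for KO number 3 this choice is open to doubt.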

Additional observations from a re-analysis of the deposited data

How the results depend on the processing

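Under every alternative run, 0 of the 44 interferon response genes were called in any of the 5 comparisons. The median deviation of the WT number 2 arrays stayed between 1.58 and 1.79 in whole leukemia and between 1.51 and 1.88 in L-GMP. The median KO minus WT difference of these genes, -0.27 in L-GMP and -0.33 in whole leukemia, became 0.20 and 0.21 without both number 2 WT arrays and 0.185 and 0.0878 without all 4 number 2 arrays, an alternative chosen after seeing the data. Leaving out 1 array at a time it ranged from -0.57 to 0.20 in L-GMP and from -0.66 to 0.21 in whole leukemia, with the highest value in each case without the WT number 2 array of that population. The median of L-GMP against whole leukemia ranged from -0.67 to 0.51 in the WT (0.51 without WT whole leukemia array 2, -0.67 without WT L-GMP array 2) and from -0.13 to -0.03 in the KO, and was 0.0043 without both number 2 KO arrays and without all number 2 arrays. The median interaction of 0.02 ranged from -0.61 to 0.55, and was -0.022 without both number 2 WT arrays and -0.0008 after quantile normalization.

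Over all genes, limma called 1 gene in KO against WT L-GMP, and 0 with both number 2 WT arrays or all number 2 arrays left out, with the replicate block of numbers 1 to 3, with the compared groups alone, with no filter on dim genes or with ordinary variance. It called 4 with array weights, 2 with the mean of all probe sets, 2 when the variance was trended and robust and 0 to 2 leaving out 1 array. In whole leukemia it called 1 without both number 2 KO arrays and 0 to 1 leaving out 1 array. For L-GMP against whole leukemia in the KO it called 1 with a trended variance, 1 with the lowest 50% of probe sets left out, 2 with log2 of intensity plus 16, and 0 to 40 leaving out 1 array, the 40 without KO whole leukemia array 1. The replicate block changed no call of an interferon response gene, and the cause of these changes was not tested. The number of arrays limits what could be resolved, and dim genes such as Mx1 lie near background, where differences are compressed.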

Other observations

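Genes in neither interferon list that lay far above their group in both WT number 2 arrays were picked after their values were seen, and no test was made. Mab21l2 deviated by 3.92 in whole leukemia and 3.71 in L-GMP, and it was also at 9.28 in KO L-GMP array 1, where KO L-GMP arrays 2 and 3 measured 5.17 and 5.08. Of the 30 genes whose lesser deviation was largest, 16 were among the 44 interferon response genes and 5 were other pathway genes. The rest of the 30 included Ifi213 and Mndal, members of the mouse p200 family, and Trim30d, a relative of Trim30a.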
